A study of Mus musculus with 12 samples.

Results

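The genes described here encode the pore-forming subunits of the AMPA and NMDA receptors, the ionotropic receptors that carry most fast glutamate transmission in the hippocampus. They were chosen by name as the 4 AMPA receptor genes (Gria1 to Gria4) and 6 of the NMDA receptor genes (Grin1, Grin2a to Grin2d and Grin3a), and all 10 were found among the 36119 genes of the deposited table. RNA came from the hippocampi of C57BL/6 mice at postnatal day 70, with 3 libraries in each of 4 groups. Enriched ethanol mice had received ethanol at 2.5 g/kg in 0.15 M saline under the skin as pups, by 2 injections separated by 2 h on postnatal day 6 and again on day 7, and were assigned to enriched cages on day 21. Enriched saline mice had received saline injections and then enriched cages. Standard ethanol mice had received ethanol and standard cages, and standard saline mice had received saline and standard cages. Thus every mouse was injected as a pup, and enriched cages held 2 to 6 littermates of the same sex with running wheels, toys and added nest material. The labels name the ethanol exposure prenatal although each injection was given after birth. They give neither the sex nor the litter of a mouse, so neither could enter the fit. The p-values here set group differences against the spread between these libraries. Shared litters or uneven sex cannot be told apart from a group difference.

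An AMPA receptor opens within milliseconds of glutamate binding and passes mainly sodium, whereas an NMDA receptor also needs a co-agonist and depolarisation, which lifts its magnesium block and lets calcium in. NMDA receptor calcium entry drives the insertion or removal of AMPA receptors that underlies long-term potentiation and depression in the hippocampus. Ethanol inhibits NMDA receptors, and in rodents the days after birth are a period of rapid synapse formation in which GluN2B-rich receptors are gradually joined by GluN2A-rich ones.

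The pore of every AMPA subunit has a site that sets calcium permeability, and the coding sequences around its codon are shown because Gria2 is set apart there by RNA editing. Each run is 45 bases of the coding strand, 5′ to 3′, from the GENCODE M21 annotation of GRCm38, and capitals mark the codon of the glutamine/arginine site. The Gria1 run lies in exon 11 (chr11:57243073-57243117, plus strand) and the Gria2 run lies in exon 11 (chr3:80706890-80706934, minus strand). The Gria3 run lies in exon 12 (chrX:41610244-41610288, plus strand) and the Gria4 run in exon 12 (chr9:4464116-4464160, minus strand).
Gria1: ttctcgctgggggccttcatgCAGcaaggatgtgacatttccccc
Gria2: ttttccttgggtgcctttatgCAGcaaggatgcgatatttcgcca
Gria3: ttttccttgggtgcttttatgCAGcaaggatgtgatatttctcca
Gria4: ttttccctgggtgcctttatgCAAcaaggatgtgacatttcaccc
All 4 genes encode glutamine here (codon 600 of Gria1, 607 of Gria2, 612 of Gria3 and 608 of Gria4, counted from the start codon). In Gria2 RNA the adenosine of this codon is normally edited by ADAR2 so that it is read as arginine, which makes receptors with GluA2 nearly impermeable to calcium. The table gives levels per gene and holds no measure of editing. The gene of the editing enzyme, Adarb1, ran from 58.7 to 69.5 TPM over the 12 libraries and was not called in any comparison.

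The encoded proteins were 907, 883, 888 and 902 residues long for Gria1 to Gria4, and the 6 pairs of AMPA subunits shared between 68.5% and 73.3% of aligned residues. Among NMDA subunits, Grin2a with Grin2b and Grin2c with Grin2d each shared 56.6%, while Grin1 shared 28.7% to 32.2% with the Grin2 subunits. This likeness in protein left little identical RNA. Of the distinct 31-base words in their coding transcripts, 0.289% to 1.26% of those of the Gria genes occurred in any other gene. The share was 22.8% for Grin1, all of it with its antisense gene Grin1os, which was not analysed here. It was 14.6% for Grin2a, mostly with the pseudogene Gm7328, which was listed at 0 in 11 libraries and at 0.29 TPM in standard saline replicate 1. It was 8.65% for Grin2d, mostly with Gm45441, which was not analysed here either. It was 1.38% or less for Grin2b and Grin2c, and 0 for Grin3a. The library kit kept strand, but whether strand was used in quantification is not given in the sources used here, so the Grin1 values could include antisense reads.

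Some libraries stood apart in the markers of hippocampal fields and neighbouring tissue. Standard saline replicate 2 had the highest summed level of 10 dentate granule cell markers, 512 TPM against 283 to 380 TPM in the other 11 libraries, and the lowest of 8 neocortex and subiculum markers, 140.5 TPM against 206 to 296.5 TPM. The choroid plexus gene Ttr was at 7503 TPM in enriched saline replicate 2, and at 385 TPM or less in the other 11 libraries. Pan-neuronal markers summed to between 4917 and 5454 TPM in all 12 libraries, and the striatal gene Six3 and the cerebellar genes Gabra6, Cbln3 and Barhl1 averaged under 1 TPM. Among the receptor genes themselves, standard saline replicate 1 had the lowest value of the 12 libraries for 7 of 10 members, and its median log2 deviation from the 12-library mean over the members, -0.19, was the farthest from 0 of any library. In RNA from whole tissue, fewer cells of a type and less RNA per cell cannot be told apart.

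The order of the subunits was stable over the libraries. TPM is scaled by transcript length, so levels can be set side by side between genes. Gria2, whose subunit controls calcium permeability and is present in most AMPA receptors of principal neurons, was highest at 472 ± 37.2 TPM (SD, n = 12), above 98.4% of the genes tested. Gria1, whose subunit pairs with GluA2 in the principal receptor of CA1 synapses and is inserted during potentiation, followed at 372 ± 49.6 TPM. Grin2b, which gives NMDA receptors slow decay, averaged 196 ± 21.1 TPM. Grin2a, which gives faster decay, averaged 178 ± 23.9 TPM, and Grin1, the obligatory glycine-binding subunit, averaged 153.5 ± 12.2 TPM. Each of these genes was above the next in all 12 libraries, except Grin2b over Grin2a, which held in 11. The ranges over libraries still overlapped between Gria2 and Gria1, between Grin2b and Grin2a and between Grin2a and Grin1.

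The other 5 subunits lay lower. Gria3, an X-linked gene whose subunit joins GluA2 in a second class of hippocampal AMPA receptor, averaged 108 ± 6.33 TPM. Gria4, most used in interneurons and in the young brain, averaged 54.5 ± 4.43 TPM. Grin3a, whose subunit lowers calcium entry and is most abundant early after birth, averaged 19.5 ± 2.22 TPM, and Grin2c, known from cerebellar granule cells and astrocytes, averaged 17.0 ± 1.37 TPM. These last genes had overlapping ranges, and Grin3a was the higher in 10 of 12 libraries. Grin2d, known from interneurons and the young brain, was lowest at 3.68 ± 0.415 TPM, at the 17.7th percentile of the genes tested. The related gene Grin3b, from 0.133 to 0.432 TPM, did not reach the mean of 1 TPM required for testing.

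**Figure D1:**
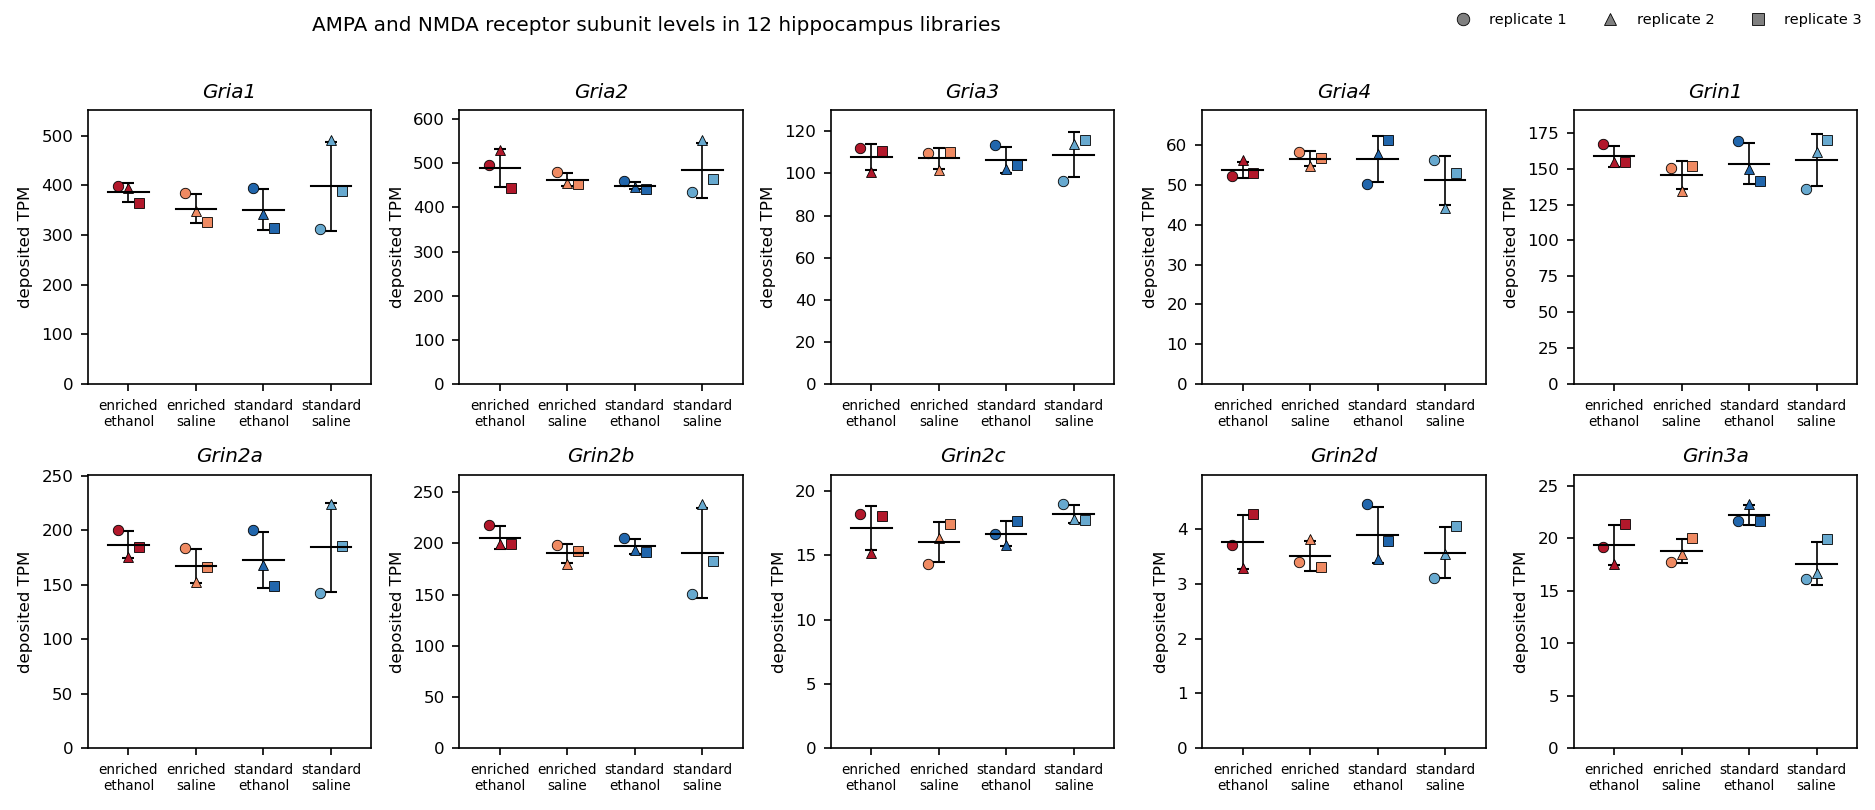
Deposited TPM of the 10 receptor subunit genes (vertical axes, linear and from 0) in the 4 groups (horizontal axis). Points are libraries with 1 marker shape per replicate number, horizontal lines are group means and bars are SD (n = 3). Standard saline replicate 2 is the highest point for Gria1, Gria2, Grin2a and Grin2b and the lowest for Gria4, and standard saline replicate 1 is the lowest for 7 of the 10 genes.

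Gria1, on chromosome 11 (57011387 to 57330244, plus strand, GRCm38 throughout), was at 399, 395 and 364 TPM in enriched ethanol, 384, 348 and 326 TPM in enriched saline, 395, 343 and 315 TPM in standard ethanol, and 313, 492 and 389 TPM in standard saline mice. Gria2, on chromosome 3 (80681450 to 80802835, minus strand), was at 495, 530.0 and 443 TPM in enriched ethanol, 480.2, 456 and 453 TPM in enriched saline, 459, 447 and 443 TPM in standard ethanol, and 435, 554 and 464 TPM in standard saline mice. For both genes the standard saline libraries held the lowest and the highest value of all 12, and every other group fell between them. Gria3, on chromosome X (41400854 to 41678601, plus strand), varied least of the members, with a coefficient of variation of 5.89% and values from 96.5 to 116 TPM. Gria4, on chromosome 9 (4417896 to 4796234, minus strand), was at 52.4, 56.2 and 53.0 TPM in enriched ethanol, 58.4, 54.7 and 56.7 TPM in enriched saline, 50.2, 57.9 and 61.4 TPM in standard ethanol, and 56.4, 44.3 and 53.0 TPM in standard saline mice. Its lowest value was in standard saline replicate 2, the library in which Gria1 and Gria2 were highest.

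Grin1, on chromosome 2 (25291181 to 25319187, minus strand), was at 167, 154 and 154 TPM in enriched ethanol, 150.2, 135 and 152 TPM in enriched saline, 169.5, 149.8 and 141 TPM in standard ethanol, and 136, 162 and 170.2 TPM in standard saline mice. Grin2a, on chromosome 16 (9567898 to 9995560, minus strand), was at 200.1, 176 and 185 TPM in enriched ethanol, 184, 152 and 166 TPM in enriched saline, 201, 168 and 149 TPM in standard ethanol, and 143, 224 and 186 TPM in standard saline mice. Grin2b, on chromosome 6 (135713233 to 136173511, minus strand), was at 218, 199 and 199 TPM in enriched ethanol, 199, 179.8 and 192 TPM in enriched saline, 205, 194 and 192 TPM in standard ethanol, and 151, 238 and 182 TPM in standard saline mice. For Grin1 and Grin2b every enriched ethanol library lay above every enriched saline library, as for 7.78% of all genes tested. The standard saline libraries of Grin2a and Grin2b again spanned the range of all 12.

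Grin2c, on chromosome 11 (115249169 to 115267243, minus strand), was at 18.2, 15.2 and 18.0 TPM in enriched ethanol, 14.3, 16.4 and 17.4 TPM in enriched saline, 16.6, 15.8 and 17.6 TPM in standard ethanol, and 19.0, 17.8 and 17.7 TPM in standard saline mice. Grin3a, on chromosome 4 (49661611 to 49845744, minus strand), was at 19.2, 17.6 and 21.3 TPM in enriched ethanol, 17.7, 18.5 and 20.04 TPM in enriched saline, 21.6, 23.2 and 21.6 TPM in standard ethanol, and 16.1, 16.7 and 19.9 TPM in standard saline mice. Grin3a had its highest values in standard ethanol mice, by a thin margin of 21.58 TPM in replicate 3 against 21.29 TPM in enriched ethanol replicate 3. The overlap of Grin3a and Grin2c between groups is given with each comparison below, beside the share of all genes. Grin2d, on chromosome 7 (45831883 to 45878378, minus strand), ran from 3.11 to 4.45 TPM with overlap between all groups.

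The question whether early ethanol leaves a lasting difference in receptor subunit RNA was put first to the standard-housed mice. None of the 10 genes passed the test between standard ethanol and standard saline mice (limma, Benjamini-Hochberg adjusted p from 0.484 to 0.989 over all genes), and 1 had an unadjusted p under 0.05. Over all 14947 genes tested, 0.0134% passed the adjusted threshold of 0.05 and 7.39% had an unadjusted p under 0.05. The gene with the smallest p was Grin3a, which averaged 22.2 ± 0.943 TPM in standard ethanol and 17.6 ± 2.06 TPM in standard saline mice (SD, n = 3 each). Its log2 fold change was 0.33 (SE 0.10, 95% interval 0.11 to 0.55), a 1.26-fold difference, with a limma adjusted p of 0.484, and its p ranked 204th among the genes tested. In this comparison Grin3a was 1 gene whose standard ethanol libraries were all higher, as were 6.11% of all genes, and Grin2c was 1 gene whose libraries were all lower, as were 5.99%. Grin2c averaged 16.7 ± 0.937 TPM in standard ethanol and 18.2 ± 0.697 TPM in standard saline mice, with a log2 fold change of -0.12 (SE 0.10).

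The remaining AMPA genes and NMDA genes had small differences of either sign after ethanol in standard cages. Log2 fold changes were above 0 for 4 members and below 0 for 6, with a median of -0.02 beside 0.00241 over all genes tested, and they ran from -0.16 for Gria1 to 0.33 for Grin3a. All 10 of the 95% intervals lay within a 1.5-fold change in either direction. The sign of this pattern depended on single libraries of both groups. Without standard saline replicate 2 the members stood at 9 above and 1 below 0, and without replicate 1 at 3 above and 7 below. Without standard ethanol replicate 2 they stood at 5 above and 5 below, and without standard ethanol replicate 3 at 6 above and 4 below. The log2 fold change of Gria1 in that comparison was -0.32 without standard saline replicate 1 and 0.00209 without replicate 2, and that of Grin2b was -0.08 and 0.25 in the same fits. Grin3a remained positive in both, at 0.27 and 0.30.

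Cell type markers differed beside Grin3a in the same libraries. The 6 oligodendrocyte precursor markers summed to 168 to 181.5 TPM in standard ethanol and 131 to 159 TPM in standard saline mice, with 5 of 6 above 0 in log2 fold change and none at 0 TPM throughout. The 6 endothelial and meningeal markers summed to 143 to 164.5 TPM in standard ethanol and 100.5 to 104 TPM in standard saline mice, again with 5 of 6 above 0. The 10 dentate granule cell markers summed to 283 to 357 TPM in standard ethanol and 345 to 512 TPM in standard saline mice, with 10 of 10 below 0. The 8 myelin and oligodendrocyte markers summed to 5193 to 5514 TPM in standard ethanol and 3173 to 5419 TPM in standard saline mice, with 8 of 8 above 0 and a median log2 fold change of 0.49. The 8 neocortex and subiculum markers summed to 206 to 241 TPM in standard ethanol and 140.5 to 281.5 TPM in standard saline mice, with 7 of 8 above 0. Unadjusted p under 0.05 was reached by 2 precursor, 3 endothelial and meningeal, 6 granule cell, 6 myelin and 3 neocortex and subiculum markers. No marker of these 5 lists was called in this comparison, and their part in the Grin3a difference was not tested.

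The same question was then put to the mice in enriched cages. None of the 10 genes passed the test between enriched ethanol and enriched saline mice (limma adjusted p from 0.760 to 0.991), and 0 had an unadjusted p under 0.05, beside 0.00% and 7.76% of all genes. Grin1, which every NMDA receptor contains, averaged 159 ± 7.33 TPM in enriched ethanol and 146 ± 9.60 TPM in enriched saline mice, a log2 fold change of 0.12 (SE 0.09). Grin2b averaged 206 ± 10.9 TPM in enriched ethanol and 190.2 ± 9.58 TPM in enriched saline mice, a log2 fold change of 0.11 (SE 0.12). The libraries of these genes did not overlap between the groups, so 2 members were higher in that sense, as were 7.78% of all genes, and 0 were lower, as were 7.45%. Log2 fold changes were above 0 for 9 members and below 0 for 1, Gria4, with a median of 0.09 beside -0.00715 over all genes tested. Without enriched ethanol replicate 3 they stood at 6 above and 4 below 0. The log2 fold change of Grin1 was 0.07 without enriched saline replicate 2, and that of Grin2b was 0.07 without enriched ethanol replicate 1 and likewise without enriched saline replicate 2. The 6 glutamatergic neuron markers summed to 1869 to 2062 TPM in enriched ethanol and 1593 to 1694 TPM in enriched saline mice, with 5 of 6 above 0 in log2 fold change, none called and none at 0 TPM throughout. The 8 astrocyte markers summed to 3119 to 3272 TPM in enriched ethanol and 2821 to 2949 TPM in enriched saline mice, with 6 of 8 above 0 and 3 at an unadjusted p under 0.05. The 8 myelin markers summed to 3765 to 5604 TPM in enriched ethanol and 3141 to 3872 TPM in enriched saline mice, with 8 of 8 above 0 and 3 at an unadjusted p under 0.05. None of these markers was called, and their part was not tested.

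**Figure D2:**
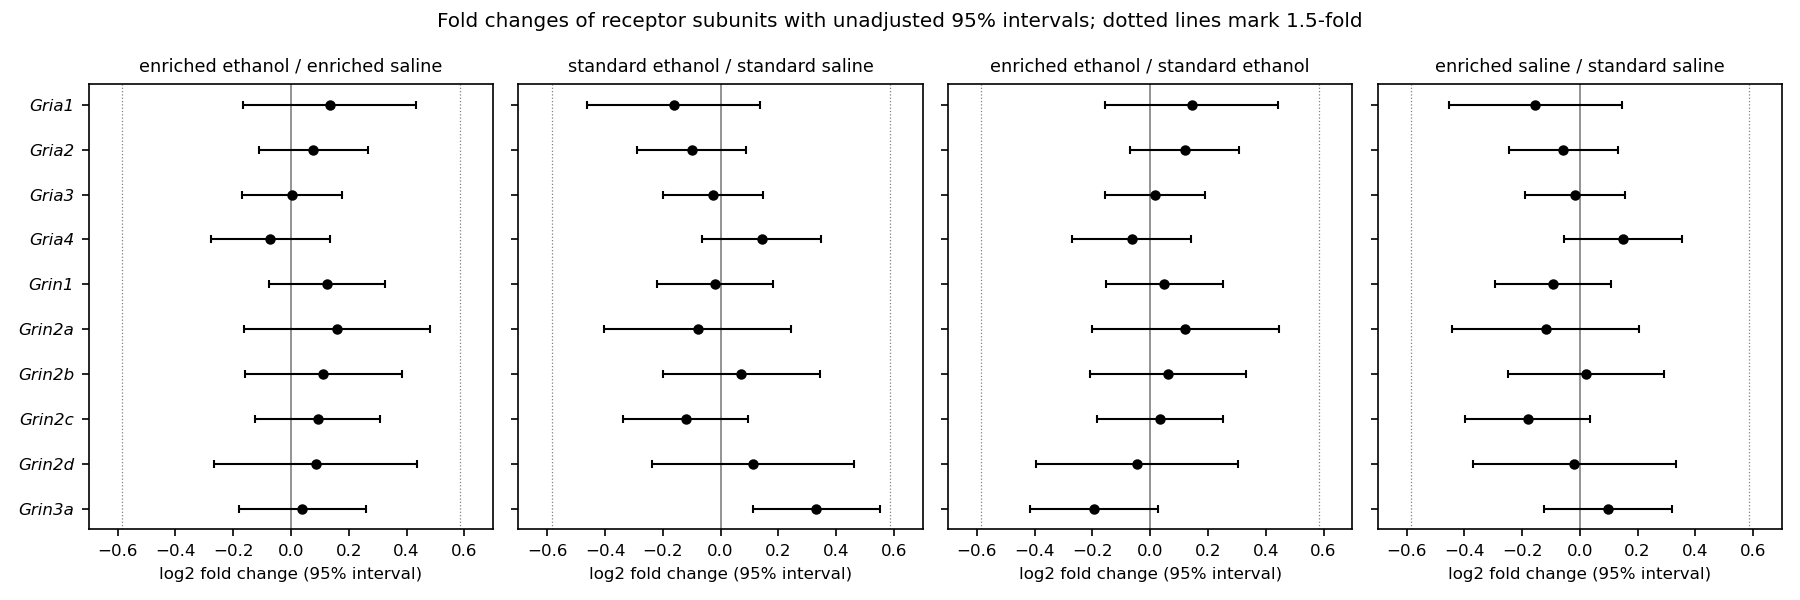
Log2 fold changes of the 10 genes on log2(TPM + 0.5) (horizontal axes) with unadjusted 95% intervals from limma (bars), in the 4 comparisons of single groups, named above each panel with the group on top of the ratio first. Dotted lines mark a 1.5-fold change, and the interval of Grin3a after ethanol in standard cages, 0.11 to 0.55, is the only one of the 40 shown that does not include 0.

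Enrichment was compared in the same way, first after ethanol. None of the 10 genes passed the test between enriched ethanol and standard ethanol mice (limma adjusted p from 0.894 to 0.997), and 0 had an unadjusted p under 0.05, beside 0.00669% and 5.57% of all genes. Grin3a averaged 19.3 ± 1.87 TPM in enriched ethanol and 22.2 ± 0.943 TPM in standard ethanol mice, a log2 fold change of -0.20 (SE 0.10, with an adjusted p of 0.894 by limma). It was 1 member whose enriched ethanol libraries were all lower, as were 5.97% of all genes, and 0 were higher, as were 6.07%. Without enriched ethanol replicate 2 its log2 fold change was -0.13. Fold changes were above 0 for 7 members and below 0 for 3, beside 7204 above and 7741 below over all genes tested. The members stood at 5 above and 5 below 0 without enriched ethanol replicate 1 or 3, and likewise without standard ethanol replicate 2 or 3. The comparison shares the standard ethanol libraries with that of ethanol in standard cages, where the log2 fold change of Grin3a was 0.33.

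After saline, none of the 10 genes passed the test between enriched and standard mice (limma adjusted p from 0.571 to 0.985), and 0 had an unadjusted p under 0.05, beside 0.0268% and 10.02% of all genes. Grin2c averaged 16.0 ± 1.56 TPM in enriched saline and 18.2 ± 0.697 TPM in standard saline mice, a log2 fold change of -0.18 (SE 0.10, with an adjusted p of 0.571 by limma). It was 1 member whose enriched saline libraries were all lower, as were 6.57% of all genes, and 0 were higher, as were 7.40%. Without enriched saline replicate 1 its log2 fold change was -0.10. Fold changes were above 0 for 3 members and below 0 for 7, beside 7610 above and 7330 below over all genes tested. Those of the members were above 0 for 7 without standard saline replicate 2 and for 2 without standard saline replicate 1. Markers differed here too, with 6 of 8 astrocyte markers below 0 and 2 at an unadjusted p under 0.05. All 10 dentate granule cell markers were below 0, 4 of them at that level. Of 6 endothelial and meningeal markers 5 were above 0, 4 of them at that level. No marker of these lists was called, and their part was not tested.

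Averaging over the other factor gave the most precise values. For ethanol over both housings, 0 members passed and 1 had an unadjusted p under 0.05, beside 0.0134% and 8.02% of all genes. This was Grin3a, with a log2 fold change of 0.19 (SE 0.07, 95% interval 0.03 to 0.34, with an adjusted p of 0.555 by limma). No member had libraries that stood wholly higher or wholly lower in the 6 ethanol mice, as 0.154% and 0.261% of all genes had. For enrichment over both exposures, 0 members passed and 0 had an unadjusted p under 0.05, beside 0.0201% and 7.96% of all genes, and log2 fold changes lay between -0.07 for Grin2c and 0.04 for Gria4. The 6 enriched libraries of a member were never all higher or all lower, against 0.234% and 0.140% of all genes.

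Whether enrichment altered the difference after ethanol was tested as an interaction, the ethanol difference in enriched cages minus that in standard cages. For this, 0 members passed (limma adjusted p from 0.691 to 0.988) and 0 had an unadjusted p under 0.05, beside 0.0134% and 7.41% of all genes. The values were 0.30 (SE 0.19) for Gria1 and -0.29 (SE 0.14, with an adjusted p of 0.691 by limma) for Grin3a, and they were above 0 for 7 members and below 0 for 3. Over all genes tested, 7229 lay above 0 and 7718 below. Leaving out replicate 2 of the standard saline mice gave 0.13 for Gria1, leaving out their replicate 1 gave 0.46, and without replicate 2 the members stood at 5 above and 5 below 0. In the comparison of enriched ethanol with standard saline mice, 0 members passed and 0 had an unadjusted p under 0.05, beside 0.0134% and 6.52% of all genes. In that comparison 0 members had enriched ethanol libraries that were all higher, as 5.07% of all genes did, and 0 all lower, as 5.59% did. Over the 8 comparisons, 77 of 80 intervals lay within a 1.5-fold change, the exceptions being the interactions of Gria1, Grin2a and Grin3a, and all lay within 2-fold.

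Ratios between subunits within a library do not depend on the scaling of that library, and are given as a description without a test. Gria1 over Gria2 was 0.807, 0.745 and 0.822 in enriched ethanol, 0.799, 0.763 and 0.719 in enriched saline, 0.862, 0.767 and 0.711 in standard ethanol, and 0.720, 0.888 and 0.837 in standard saline mice, so the groups overlapped. Gria2 made up 45.1% to 49.0% of the summed AMPA subunit TPM, Gria1 34.1% to 40.9%, Gria3 9.29% to 11.7% and Gria4 3.68% to 6.66%. The lowest Gria4 share and the highest Gria1 share were both in standard saline replicate 2.

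Among NMDA subunits, the ratio of Grin2a to Grin2b, whose rise marks the maturation of synapses in the young brain, was 0.917, 0.881 and 0.927 in enriched ethanol, 0.927, 0.848 and 0.864 in enriched saline, 0.980, 0.867 and 0.779 in standard ethanol, and 0.945, 0.941 and 1.0202 in standard saline mice. Standard ethanol mice had the lowest single value, while their highest exceeded 2 of the standard saline values. The standard saline values lay above all values of both enriched groups, by a margin of 0.941 against 0.927. The summed Grin2 genes over Grin1 gave 2.29 to 2.67 in 11 libraries and 2.99 in standard saline replicate 2. Summed AMPA over summed NMDA subunit TPM was 1.76 ± 0.136 in enriched ethanol, 1.81 ± 0.0917 in enriched saline, 1.71 ± 0.0544 in standard ethanol mice, and 1.83 ± 0.0835 in standard saline mice (SD, n = 3 each). The standard ethanol values lay below the standard saline values, by a margin of 1.755 against 1.762. How often ratios of other genes separate groups in this way was not computed.

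**Figure D3:**
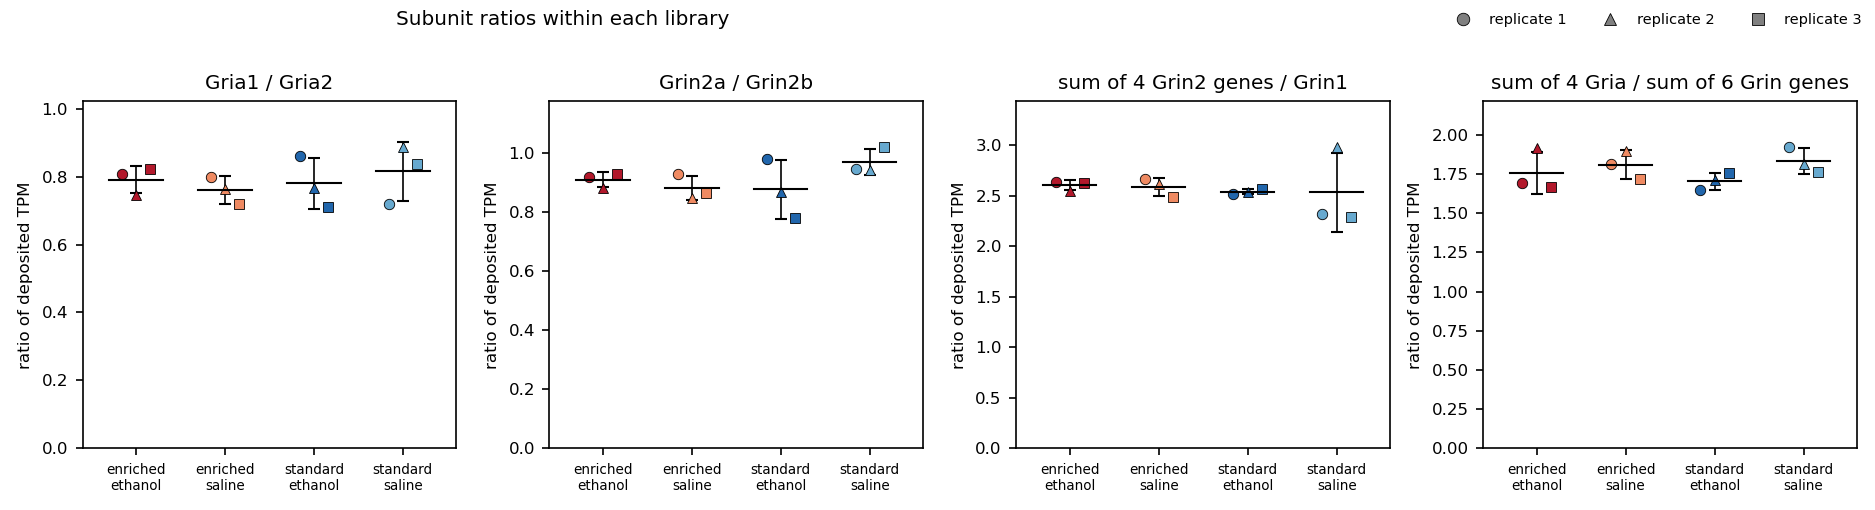
Ratios of deposited TPM between subunits within each library (vertical axes, from 0) in the 4 groups (horizontal axis). Points are libraries with 1 marker shape per replicate number, lines are means and bars SD (n = 3). The groups overlap for Gria1 over Gria2, and standard saline replicate 2 has the highest value, 2.99, for summed Grin2 genes over Grin1.

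Some pairs of subunits varied together over the 12 libraries, which share preparation and scaling, and the correlations of log2(TPM + 0.5) are given as a description. Gria1 and Grin2a had r = 0.917 (rho 0.923), and r = 0.850 over the 10 libraries left without standard saline replicates 1 and 2, the farthest from the median of Gria1. Grin1 and Grin2a had r = 0.863 (rho 0.881), and Grin2a and Grin2b r = 0.844 (rho 0.811). Other pairs were looser, with r = 0.442 for Gria2 and Grin1, and 0.281 for Gria2 and Gria3, which was 0.10 without standard saline replicate 2. Grin1 and Grin2b had r = 0.635 over 12 libraries and 0.308 over the 10 left without enriched saline replicate 2 and standard saline replicate 1. Gria4 ran against Gria1 with r = -0.828 (rho -0.762), and r = -0.672 over the 10 libraries left without standard saline replicates 1 and 2. Grin3a and Grin2c were tied to none of the AMPA genes this closely, with r between -0.50 and 0.26 against each of the 4.

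**Figure D4:**
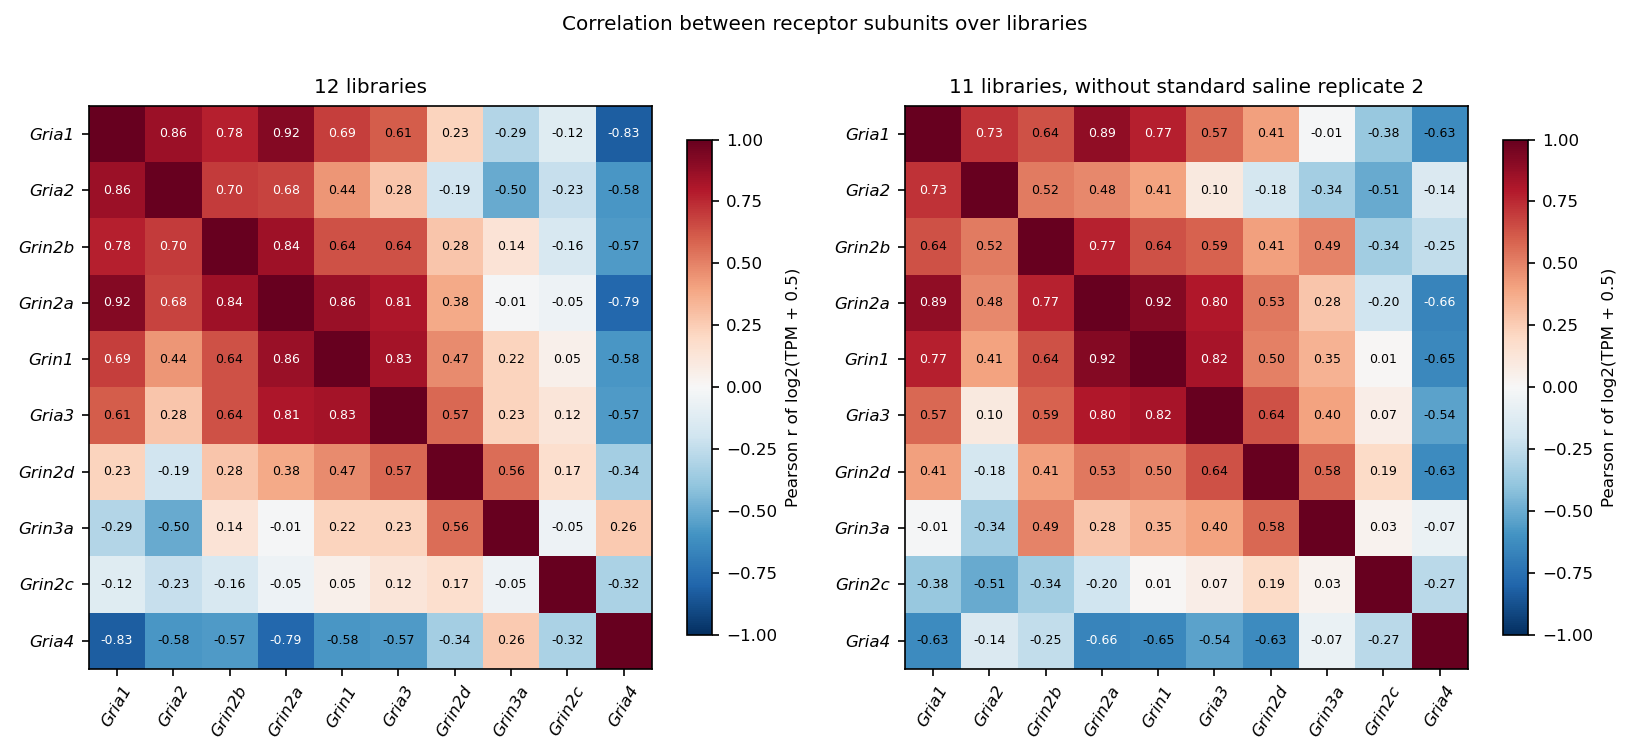
Pearson correlation of log2(TPM + 0.5) between the 10 subunit genes (rows and columns) over 12 libraries (left) and over the 11 without standard saline replicate 2 (right). The colour scale runs from -1 to 1. Gria1 with Grin2a is at 0.92 and 0.89 in the 2 panels, and Gria4 with Gria1 at -0.83 and -0.63.

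Several subunits varied with cell type markers, including markers of tissue outside the hippocampus. Here the level of a marker list was the mean of its centred log2(TPM + 0.5) values. Each marker thus had equal weight, unlike in the summed TPM used elsewhere. Over the 12 libraries, log2 Grin1 followed the glutamatergic neuron markers (r = 0.912, rho 0.930), also without standard saline replicate 2 (r = 0.913). Gria4 ran against the dentate granule cell markers (r = -0.893, rho -0.769, and r = -0.735 without standard saline replicate 2). It also varied with the neocortex and subiculum markers (r = 0.852, and 0.595 without that library) and the striatum markers (r = 0.811, and 0.554 without it). Gria1 followed the dentate granule cell markers only through that library, with r = 0.704 over 12 libraries and 0.336 over 11. With the CA1 pyramidal cell markers, Gria1 had r = 0.322 over 12 libraries and 0.760 over 11, and with the neocortex and subiculum markers -0.771 and -0.441. Other correlations of Gria1 changed less without that library, at 0.719 and 0.721 with the glutamatergic neuron markers. They were -0.725 and -0.817 with the microglia markers, and -0.698 and -0.639 with the interneuron markers. Grin3a had r = 0.710 (rho 0.727) with the oligodendrocyte precursor markers, 0.674 with the thalamus and habenula markers, 0.647 with the endothelial and meningeal markers and 0.553 with the myelin markers. Without standard saline replicate 2 these were 0.651, 0.634, 0.585 and 0.459. With the cerebellar granule cell markers, Grin3a had r = -0.566 over 12 libraries and -0.767 over 11. Gabra6, Cbln3 and Barhl1 of that list averaged under 1 TPM.

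**Figure D5:**
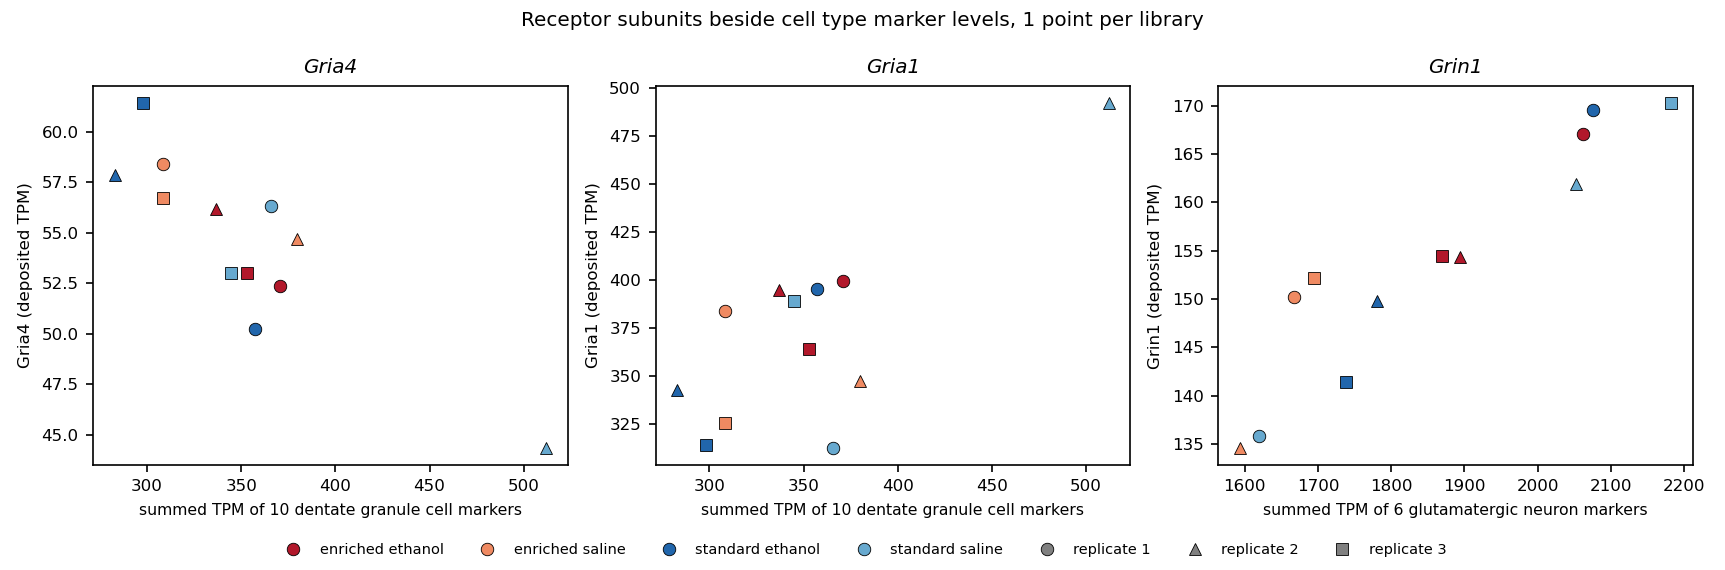
Deposited TPM of Gria4, Gria1 and Grin1 (vertical axes) against the summed TPM of marker genes in the same library (horizontal axes, none starting at 0), with dentate granule cell markers in the left and middle panels and glutamatergic neuron markers in the right panel. Each point is a library, coloured by group with 1 shape per replicate number. The correlations in the text used the mean log2 level of each marker list, not the summed TPM plotted here. Standard saline replicate 2, at 512 TPM of granule cell markers, stands apart in the left and middle panels.

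By correlation of log2(TPM + 0.5) over the 12 libraries, the 2 protein-coding genes closest to each member were sought among 14102 candidates. Closest to Gria1 were Nckap1 (r = 0.979), an actin regulator of the WAVE complex, and Ptk2b (r = 0.973), a calcium-activated kinase that acts on NMDA receptor signalling. Closest to Gria2 were Bin3 (0.957) and Fam19a1 (0.931). Closest to Gria3 were D630045J12Rik (0.931) and Ccdc177 (0.930), and closest to Gria4 were the prohormone convertase gene Pcsk1 (0.942) and Pamr1 (0.940). Grin1 was closest to Celsr2 (0.968), an adhesion receptor of planar polarity, and Disp2 (0.952). For Grin2a the closest was Dagla (0.966), which makes the endocannabinoid 2-arachidonoylglycerol. Grin2b was closest to Camsap2 (0.929) and Nsf (0.915), an ATPase that binds GluA2 and maintains AMPA receptors at the surface. Grin2c was closest to Ormdl1 (0.903) and Aplf (0.898), Grin2d to Cabin1 (0.942) and Gm14226 (0.869), and Grin3a to Zdbf2 (0.917) and Lpar6 (0.901). All of these are the highest of many correlations over the same libraries.

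Genes that work with the receptors were examined in 4 lists. None of the 7 tested kainate and delta receptor genes, 18 AMPA receptor auxiliary proteins, 14 anchoring and trafficking proteins or 18 signalling and co-agonist enzymes was called in any of the 8 comparisons by limma. Unadjusted p under 0.05 was reached after ethanol in standard cages by 0 receptor genes, 4 auxiliary proteins, 0 anchoring proteins and 4 enzymes, beside 7.39% of all genes. For ethanol in enriched cages these counts were 0, 2, 0 and 1, beside 7.76% of all genes. For enrichment after saline they were 1, 2, 1 and 3, beside 10.02%, and for enrichment after ethanol 0, 1, 3 and 0, beside 5.57%. Median log2 fold changes after ethanol in standard cages were 0.10, -0.05, 0.08 and -0.05 in the same order, beside 0.00241 over all genes tested.

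The smallest p in the lists belonged to Akap5, which anchors protein kinase A and calcineurin beside AMPA receptors. Akap5 was at 64.1, 57.8 and 63.9 TPM in enriched ethanol, 64.0, 59.9 and 66.7 TPM in enriched saline, 50.7, 54.8 and 57.5 TPM in standard ethanol, and 49.3, 53.5 and 51.2 TPM in standard saline mice. All 6 enriched libraries were above all 6 standard libraries, as for 0.234% of all genes, with a log2 fold change for enrichment over both exposures of 0.25 (SE 0.05, with an adjusted p of 0.251 by limma). Camk2d, a calcium/calmodulin kinase gene, was at 65.4, 75.02 and 73.1 TPM in enriched saline, against 39.4, 26.4 and 56.9 TPM in standard saline mice, and its log2 fold change was 0.86 (SE 0.20, with an adjusted p of 0.260 by limma). Its enriched saline libraries were all higher, as were 7.40% of all genes, and the lowest value was again in standard saline replicate 2.

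Fyn, a Src-family kinase that phosphorylates GluN2B, had the smallest p of the lists for ethanol over both housings. Fyn was at 95.5, 87.7 and 109 TPM in enriched ethanol, against 91.2, 81.5 and 81.3 TPM in enriched saline mice, and at 106, 99.3 and 97.4 TPM in standard ethanol, against 88.3, 89.2 and 75.2 TPM in standard saline mice. The standard ethanol libraries were all higher than the standard saline libraries, as for 6.11% of all genes, while the enriched groups overlapped. The log2 fold change over both housings was 0.23 (SE 0.06, with an adjusted p of 0.442 by limma). Cacng3, which encodes an AMPA receptor auxiliary subunit of the TARP family, was at 40.5, 37.4 and 42.3 TPM in standard ethanol and 33.5, 28.3 and 34.7 TPM in standard saline mice, a log2 difference of 0.32 (SE 0.10, with an adjusted p of 0.5001 by limma). Prrt1, which encodes an AMPA receptor-associated protein, was at 29.9, 20.6 and 25.8 TPM in enriched ethanol and 18.4, 17.4 and 19.8 TPM in enriched saline mice, a log2 difference of 0.43 (SE 0.17, with an adjusted p of 0.603 by limma). None of these differences passed the threshold over all genes.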

How the data were processed

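The analysis used 1 table for 12 hippocampus libraries. The values the authors deposited are named TPM, a signal per gene that should sum to a fixed total, but the deposited columns sum to between 973187 and 1024536. Each library therefore carries a further factor, and the values were treated as a deposited signal proportional to TPM within a library, not as plain TPM; the test is the same. Per the submitters' processing notes, CASAVA, kallisto, sleuth and the build mm10 were used, without versions or order. TPM keeps no counts, so depth is unknown and no counting interval is given. The column names gave each library's sample, 0 columns were left unmatched, and no libraries were identical.

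Symbols (35879 of 36119 identifiers), positions, coding sequences and transcripts come from the GENCODE M21 annotation of GRCm38 (mm10). All 10 members passed the filter on low values. limma 3.58.1 in R 4.3.3 fitted 1 mean per group to log2(value + 0.5) of 14947 genes, those averaging 1 or more over the libraries (8 residual and 3.82 prior degrees of freedom, variance trend). The 8 contrasts had two-sided tests, with p-values adjusted by Benjamini-Hochberg over the whole table and a threshold of 0.05, and the test was checked on simulated data. Fold changes are on the log2(TPM + 0.5) scale, which understates changes of low genes. Protein identity came from global alignment of the translated longest coding sequences. Correlations and ratios were computed with Python 3.11.15, pandas 2.3.3 and numpy 2.4.6.

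Alternatives were other pseudocounts (0.1 and 1), no filter, a mean of at least 5, rescaling by median ratios or to 1 common sum, a fit of the compared groups alone, no variance trend, a replicate block, and leaving out each library. The members, marker lists and companion lists were chosen with earlier results of these data known. All members are named. Companion genes named come from the 3 smallest p of each list and comparison, apart from Adarb1, Grin3b and the genes of most similar pattern (the 2 highest correlations per member, of which 1 gene is not reported here).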

Additional observations from a re-analysis of the deposited data

How the results depend on the processing

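No member was called in any of the 8 comparisons under any alternative. Of the 1672 alternative log2 fold changes of members, 1642 moved by less than 1 SE and 30 by more, and 109 changed sign, in 44 of the 80 combinations of member and comparison, none of which had an unadjusted p under 0.05 at first. For Grin3a, the log2 fold change after ethanol in standard cages ran from 0.27 to 0.42 over 21 alternatives, with unadjusted p under 0.05 in all 21 and a smallest adjusted p of 0.310 (limma). Over both housings it ran from 0.15 to 0.23, with unadjusted p under 0.05 in 17 of 21. Grin2d has no value with a mean of at least 5. The groups share replicate numbers, but same-numbered libraries had deviations correlated at -0.151 to 0.058, and 3 of 12 libraries correlated best with their own number. The numbers thus gave no sign of pairing, but these values cannot exclude pairing by litter or preparation.

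Few of all genes were called, and these counts changed with the setting; the cause was not tested. With a pseudocount of 0.1, calls were 0 in place of 2 for ethanol in standard cages, 2 in place of 0 for ethanol in enriched cages, 0 in place of 1 for enrichment after ethanol, 0 in place of 2 for the interaction and 0 in place of 2 for ethanol over both housings. A pseudocount of 1 gave 1 in place of 4 for enrichment after saline, and median ratio scaling gave 2. With no filter, calls were 7 for ethanol in standard cages, 1 for ethanol in enriched cages, 7 for enrichment after saline, 2 for enrichment after ethanol, 4 for the interaction, 6 for ethanol over both housings and 6 for enrichment over both exposures. With a mean of at least 5, calls were 0 for ethanol in standard cages, 1 for enrichment after saline, 0 for enrichment after ethanol, 1 for ethanol plus enrichment, 0 for the interaction, 0 for ethanol over both housings and 0 for enrichment over both exposures. Fitting only the groups compared gave 4 for ethanol in standard cages, 1 for ethanol in enriched cages, 8 for enrichment after saline and 4 for enrichment after ethanol. No variance trend gave 1 for ethanol plus enrichment. The replicate block gave 1 in place of 2 for ethanol plus enrichment and 1 in place of 2 for ethanol over both housings, and called no member.

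Leaving out 1 library at a time gave 2 to 7 calls for ethanol in standard cages, 0 to 15 for ethanol in enriched cages, 1 to 20 for enrichment after saline, 1 to 21 for enrichment after ethanol, 1 to 16 for ethanol plus enrichment, 1 to 12 for the interaction, 1 to 10 for ethanol over both housings and 2 to 12 for enrichment over both exposures. The highest count came without standard saline replicate 2 for ethanol in standard cages and enrichment after saline, and without enriched ethanol replicate 3 for the other 6 comparisons. Depth is unknown, so no detection limit can be given, and 3 libraries per group limit the precision to the intervals above.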
